A study of Mus musculus with 31 samples.

Results

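The transcripts of CD11b+ microglia were compared with those of bulk cortex in female APP/PS1 mice that were homozygous for the PLCγ2-P522R variant (A+/ki/ki). All 4 CD11b+ and all 4 cortex libraries labelled with this genotype were taken, 8 of the 31 libraries of the series, and their counts were joined by gene ID. The A+/ki/ki mice were 13 months old, had a C57Bl/6J background and carried the APPswe/PS1dE9 transgene, a chimeric mouse/human APP with the Swedish mutation and human PS1dE9 under the mouse prion protein promoter, together with a knock-in of the variant into mouse *Plcg2* made with CRISPR/Cas9. The 4 CD11b+ and 4 cortex libraries of female A+/wt/wt mice, which had the same transgene, age and background and wild-type *Plcg2*, served as a comparison at the end. No library without the transgene was used.

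CD11b+ cells were pulled out of the enzymatically dissociated whole brain with magnetic beads, and their RNA was purified on columns. The cortex samples were aliquots of homogenized temporo-occipital cortex extracted with TRIzol. The cells and the tissue came from different mice, were counted in separate tables, and only the CD11b+ labels carry a batch tag (2). Cell type, dissociation, brain region, RNA extraction and mouse therefore differed together in every comparison of CD11b+ cells with cortex below and cannot be told apart. The labels give no batch for cortex, so a batch difference cannot be told apart from these either. In addition, fewer cells of a type and less RNA per cell cannot be told apart in bulk samples. Nothing in the labels ties the libraries of a group to shared litters or days, and the p-values measure the spread between these mice.

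The total counts of the CD11b+ libraries, in M (1000000) counts, were 22.0, 24.5, 19.0 and 25.1 M (mice 244, 335, 394 and 405) and those of the cortex libraries 27.8, 34.5, 43.1 and 41.1 M (mice 184, 203, 216 and 222). Values per library are given below in this order of mice, as counts per M of the library total (CPM) after TMM scaling, which sets libraries of different composition on a common scale. A log2 fold change (log2FC) is CD11b+ over cortex, and its error is the standard error. A gene was called when its p from edgeR's quasi-likelihood test, adjusted over all tested genes by the Benjamini-Hochberg procedure, was under 0.05. Called genes with a log2FC of at least 1, or 2-fold, are termed enriched, those with a log2FC of -1 or below depleted, and those beyond 3 or -3, or 8-fold, strongly so.

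The CD11b+ library of mouse 335 stood apart from the other 3. On the first principal component of all tested genes, which held 89.2% of the variance, the CD11b+ libraries lay at -153, -88.5, -196 and -204 and the cortex libraries between 157 and 163. The median level of 18 pan-neuronal genes in the CD11b+ libraries was 3.66, 11.4, 1.36 and 1.13% of the mean cortex level. Mouse 335 was thus the highest for neuronal transcripts. It was also the highest for the summed oligodendrocyte markers (32435, 74576, 9661 and 10008 CPM), for the 13 genes of mitochondrial DNA (63776, 169893, 33348 and 30495 CPM) and for the summed neutrophil markers (1271, 2592, 927 and 1172 CPM). It was the lowest for the summed homeostatic microglial markers (31756, 21988, 34272 and 35009 CPM). In the other CD11b+ libraries, most of the neutrophil sum came from *Csf3r*, whose levels are given below. No library was left out of the values below. Where the ratio of a gene moved by more than 1.5 times without mouse 335, the log2FC without it is given in square brackets behind the error or in a sentence. No pair of libraries was a duplicate, and the closest pair of CD11b+ libraries was that of mice 394 and 405 (Pearson's r 0.984 across genes). Each pair of cortex libraries had a higher r (0.989 to 0.992).

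**Figure D1:**
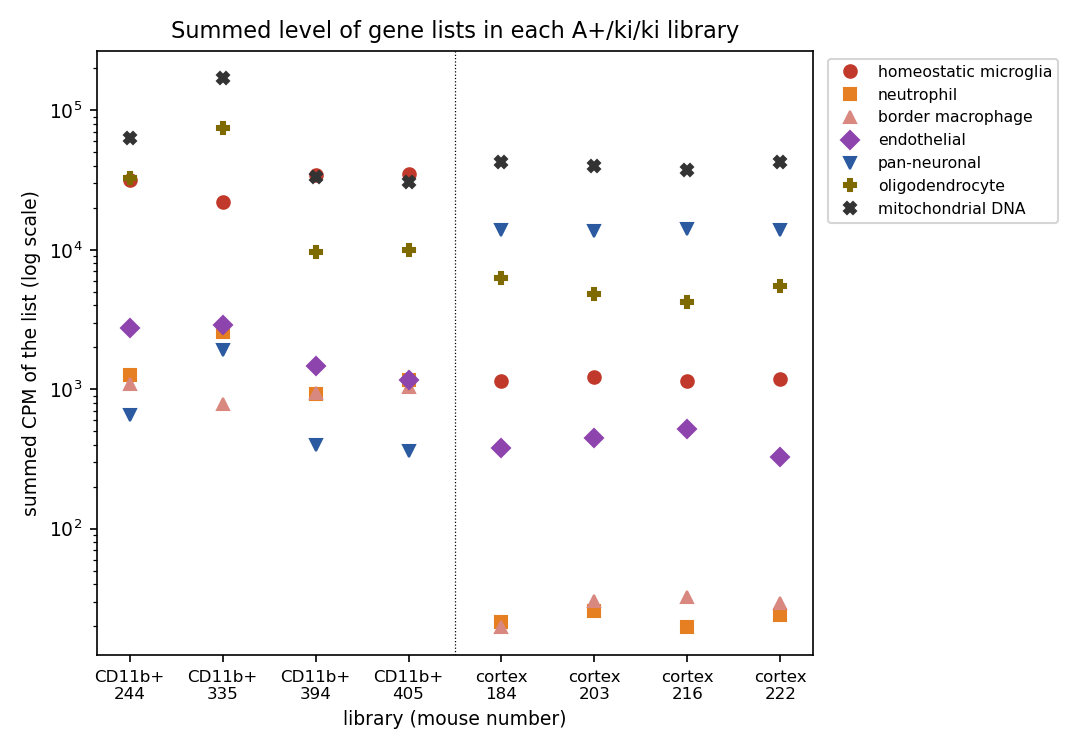
Summed CPM (log scale) of 7 gene lists in each A+/ki/ki library, with 4 CD11b+ libraries on the left and 4 cortex libraries on the right, 1 point per list and library. CD11b+ mouse 335 has the highest oligodendrocyte, mitochondrial DNA, neutrophil and pan-neuronal sums and the lowest homeostatic microglial sum of the CD11b+ libraries. The neutrophil sum is mostly Csf3r in the CD11b+ libraries other than that of mouse 335. Over the CD11b+ libraries, the border macrophage sum is mostly Stab1.

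Microglia are the resident macrophages of the brain. They depend on signals through the receptor CSF1R, survey the tissue through purinergic and fractalkine receptors, and clear debris and synapses with complement, phagocytic receptors and lysosomes. In Alzheimer's disease models, microglia near plaques shift from a homeostatic to a disease-associated (DAM) transcript pattern that depends on the lipid receptor TREM2, its adaptor TYROBP and the kinase SYK. PLCγ2, the phospholipase downstream of this receptor, cleaves a membrane phosphoinositide into diacylglycerol and inositol trisphosphate, which releases calcium from internal stores. CD11b itself is the integrin alpha subunit encoded by *Itgam*. It is also present on border macrophages, monocytes and neutrophils, so that beads against it can collect these cells too.

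Of 55401 genes in the tables, 18954 reached 10 counts in 3 or more of these libraries and were tested. The 2 preparations differed in most of them. A total of 14517 genes were called (76.6%), 6978 of them higher in CD11b+ cells (36.8%) and 7539 higher in cortex (39.8%). Enriched genes numbered 4985 (26.3%) and depleted genes 5683 (30%), and 1772 (9.35%) and 2545 (13.4%) were strongly so. In 13792 genes (72.8%), the CPM ranges of the groups did not overlap. These shares are the background against which the counts of each gene group below are read. The median log2FC over all tested genes was -0.08. A gene that passed the count minimum only through the group in which it was high had to differ, so the counts of called genes in a list describe its members and are not tests of the list.

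The spread between mice was larger in the CD11b+ preparations. The median coefficient of variation over the tested genes was 26.5% in CD11b+ and 10.7% in cortex libraries. It reached 104% in CD11b+ libraries for the strongly depleted genes, compared with 28.8% for the strongly enriched ones. Gene classes differed as well. Protein-coding genes made up 81.2% of the tested genes, 73.7% of the strongly enriched and 77.3% of the strongly depleted ones, and intergenic and antisense noncoding genes 10.9%, 14.8% and 16.7%. The median gene spanned 19.1 kb in all tested genes, 13.8 kb in the strongly enriched and 24.4 kb in the strongly depleted class. Read counting was not strand-specific, and 30.1% of the tested genes with an annotation had exons that overlapped a gene on the opposite strand. *Cx3cr1*, *P2ry12*, *Csf1r*, *Zfp36*, *Il1b*, *App*, *Penk* and *Meg3* were among them, and reads of the overlapping gene can be included in their counts.

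**Figure D2:**
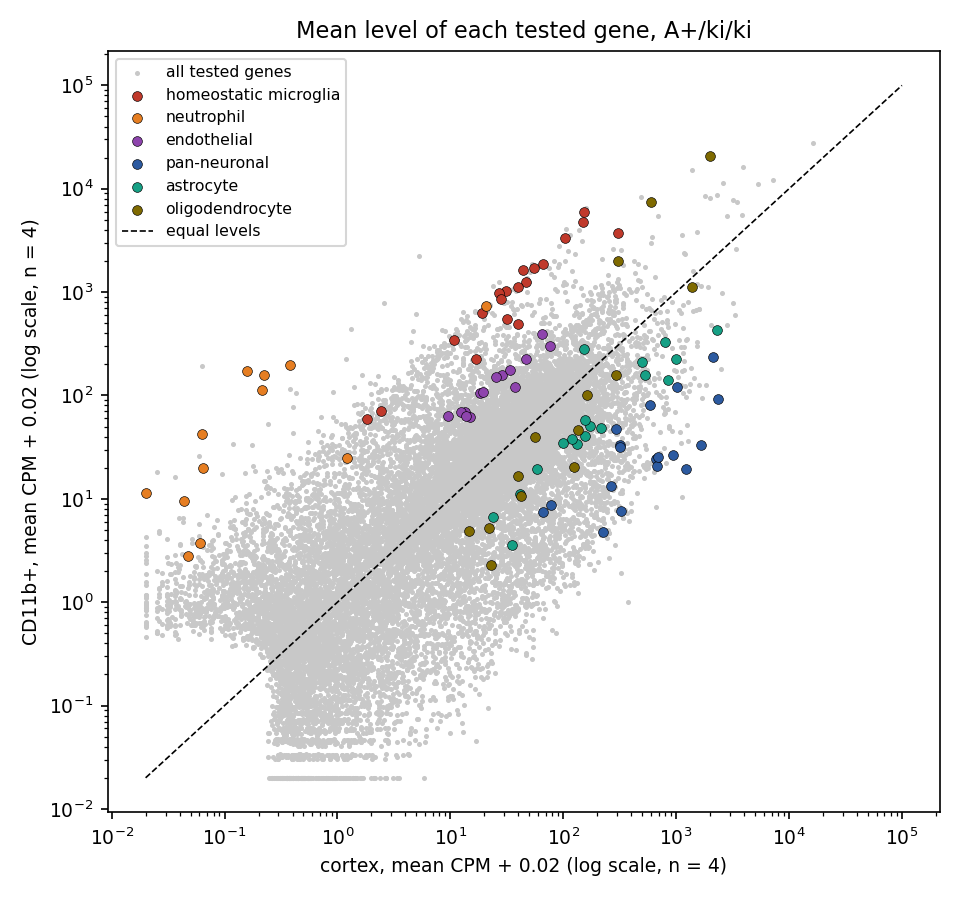
Mean CPM of each tested gene in cortex (x axis) and in CD11b+ preparations (y axis), n = 4 each, with 0.02 added and both axes on log scales. Grey points are the 18954 tested genes, coloured points are 6 marker lists, and the dashed line marks equal levels, with microglial, neutrophil and endothelial markers above it and pan-neuronal and most astrocyte markers below it.

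The defining gene of the selection was high in every CD11b+ library. *Itgam* (GRCm38 chromosome 7, 128062640 to 128118491, plus strand) was 494, 454, 633 and 628 CPM in CD11b+ and 12.7, 13.8, 11.4 and 12.3 CPM in cortex libraries. The lowest CD11b+ library, mouse 335, was thus far above the highest cortex library (log2FC 5.46 ± 0.17, adjusted p 3.27e-07). *Ptprc*, which encodes the leukocyte phosphatase CD45, was 438, 273, 494 and 537 and 10.5, 11.7, 11.0 and 11.6 CPM, respectively, again lowest in mouse 335 among CD11b+ libraries and without overlap between the groups (log2FC 5.28 ± 0.24). All 19 pan-myeloid genes tested were enriched (median log2FC 4.94). They ranged from the actin regulator *Coro1a* (2.09 ± 0.11, 423, 380.4, 486 and 465 CPM in CD11b+ and 97.5, 109.9, 102 and 102 CPM in cortex libraries), which neurons also express, to the NADPH oxidase subunit *Cybb* (5.54 ± 0.25). The protease *Ctss*, the most abundant of the list, averaged 6530.5 ± 772 CPM in CD11b+ and 158 ± 15.9 CPM in cortex libraries (SD, n = 4).

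All 19 homeostatic microglial genes were strongly enriched (median log2FC 4.95), and their values were within a narrow range of 3.62 to 5.29. *P2ry12*, the ADP receptor that guides microglial processes, was 1666, 1068, 1949 and 1874 CPM in CD11b+ and 51.2, 43.2, 45.8 and 37.6 CPM in cortex libraries. *Cx3cr1*, the fractalkine receptor, was 3617, 2326, 3594 and 3945 and 105, 113, 92.0 and 105 CPM, and *Tmem119* 997, 801, 1075 and 1189 and 30.0, 29.1, 31.99 and 32.3 CPM. For all 3 genes, mouse 335 was the lowest CD11b+ library and the ranges of the groups were far apart (log2FC 5.21 ± 0.24, 5.02 ± 0.22 and 5.04 ± 0.16). *Csf1r* was at the upper end of the list (5.29 ± 0.23) and the matrix protein *Sparc* at the lower end (3.62 ± 0.15). Without mouse 335, the list median was 5.10. In cortex, the list's genes summed to 1146 to 1224 CPM.

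The upstream sequences of a few of these genes are shown, because they hold the 7 letters GAGGAAG, or CTTCCTC on the other strand, which match sites bound by PU.1 (*Spi1*), the transcription factor that macrophages and microglia require. They were taken from RefSeq promoter windows of GRCm38.p6 and chosen for the match and after the values were known. Each run covers the 120 bases that end just before the transcription start, read 5′ to 3′ on the gene's strand, with the match in capitals.
Itgam (chr7:128062520-128062639, plus strand): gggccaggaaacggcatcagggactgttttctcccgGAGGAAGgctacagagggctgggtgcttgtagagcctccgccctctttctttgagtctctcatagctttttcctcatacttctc
Trem2 (chr17:48346281-48346400, plus strand): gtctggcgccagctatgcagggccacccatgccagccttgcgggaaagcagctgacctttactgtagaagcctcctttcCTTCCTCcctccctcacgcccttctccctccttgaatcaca
Laptm5 (chr4:130913196-130913315, plus strand): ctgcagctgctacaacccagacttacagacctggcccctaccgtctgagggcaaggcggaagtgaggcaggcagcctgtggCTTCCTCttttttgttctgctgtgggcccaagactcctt
P2ry13 (chr3:59210883-59211002, minus strand): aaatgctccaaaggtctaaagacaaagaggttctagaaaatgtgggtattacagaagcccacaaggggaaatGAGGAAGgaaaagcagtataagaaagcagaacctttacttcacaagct
The match began 84, 41, 39 and 48 bases before the start in *Itgam*, *Trem2*, *Laptm5* and *P2ry13*. The corresponding log2FC values were 5.46, 4.51, 4.94 and 5.04.

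Over the whole window of 300 bases, 250 before and 50 after the start, GAGGAAG on either strand was found in 16.1% of the 13225 tested genes with a window. The share was 24.8% of the 1150 strongly enriched and 15.3% of the 1668 strongly depleted genes. It was 6 of 15 pan-myeloid and 3 of 12 homeostatic genes with a window. Lists of other cells held it as well, with 4 of 10 endothelial, 3 of 9 pan-neuronal and 3 of 5 choroid plexus and ependymal genes with a window. CCGGAAG, a sequence bound by ETS factors of many cell types, was found in 16.8% of tested, 7.91% of strongly enriched and 4.32% of strongly depleted genes. TATAAA was found in 9.67%, 16% and 12.6%, and the E-box TCACGTG in 6.31%, 4.52% and 4.08%, respectively. These matches describe the letters of the windows and were not tested.

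**Figure D3:**
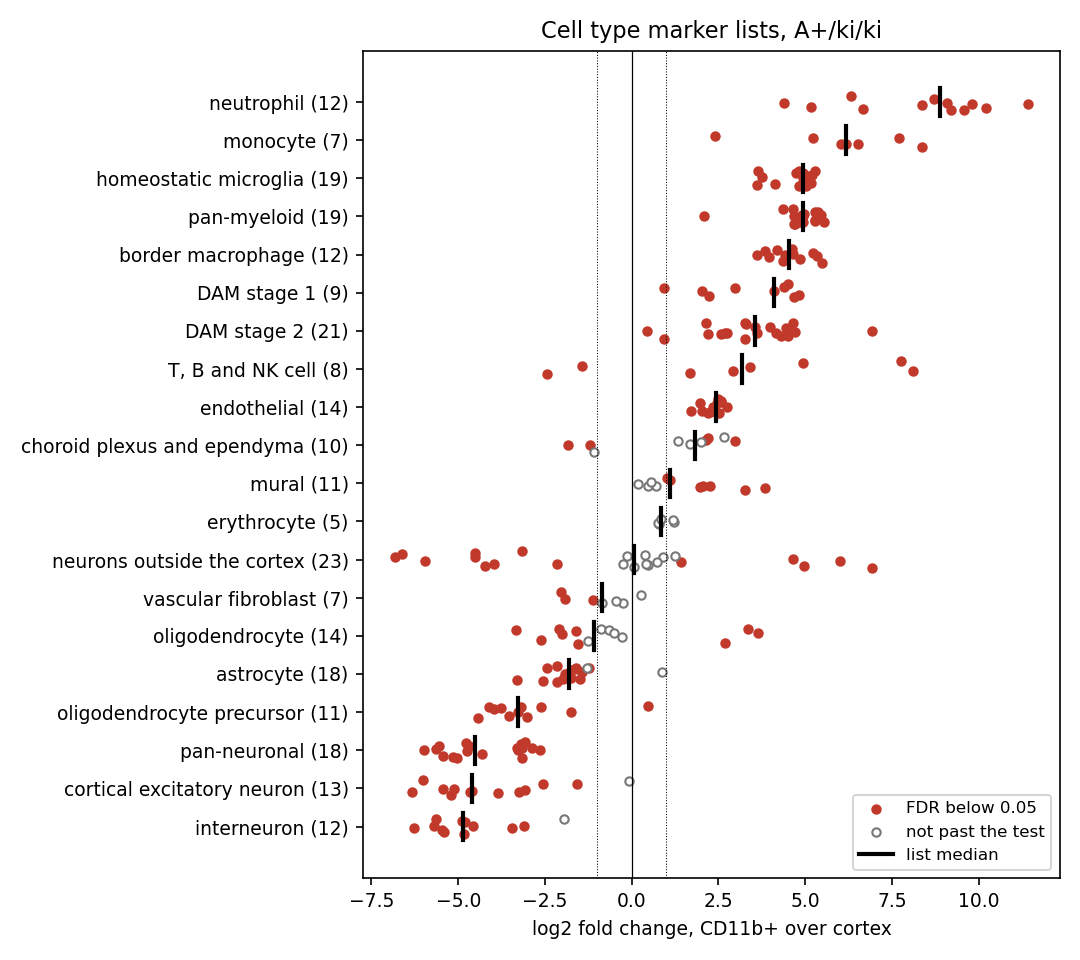
The log2FC (CD11b+ over cortex, x axis) of each tested member of the cell type lists, with the number of members in parentheses, filled for genes called at an adjusted p under 0.05 and open for the others. Thick lines mark the list medians, dotted lines a log2FC of -1 and 1, and the medians run from -4.87 for interneurons to 8.90 for neutrophils.

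Transcription factors of microglia were enriched with few exceptions. Of 18 genes, 16 were enriched and none was depleted (median log2FC 3.98). *Spi1*, which encodes PU.1, was 251, 201, 292 and 277 CPM in CD11b+ and 10.3, 10.9, 9.66 and 8.49 CPM in cortex libraries (4.70 ± 0.16). *Irf5* had the highest value (4.92 ± 0.23), and the microglial identity factor *Sall1* (4.14 ± 0.24) was lowest in mouse 335 among the CD11b+ libraries. The exceptions were *Mef2c* and *Mef2d*, which neurons express as well. *Mef2c* was 410.0, 248, 478 and 505 CPM in CD11b+ and 439, 498, 426 and 381 CPM in cortex libraries, with overlapping ranges and no call (-0.09 ± 0.22, adjusted p 0.728). Without mouse 335, its log2FC was 0.11 (adjusted p 0.424).

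The receptor pathway that leads to PLCγ2 was enriched as a whole. All 22 genes from *Trem2* to the downstream adaptors were enriched, 19 of them strongly (median log2FC 4.81). *Trem2* was 1551, 1319.8, 1996 and 1986 CPM in CD11b+ and 78.4, 83.5, 66.4 and 73.4 CPM in cortex libraries (4.51 ± 0.19), and its adaptor *Tyrobp* 1149, 1013, 1430.1 and 1459 and 49.7, 54.8, 43.0 and 50.0 CPM (4.68 ± 0.18). Neither gene had overlapping ranges, and mouse 335 was the lowest CD11b+ library for both. The lipid phosphatase *Inpp5d*, which opposes PI3K signalling (5.08 ± 0.23), and the adaptor *Fyb* (5.44 ± 0.31) were at the upper end. *Bcl10*, which links receptors to NF-κB in many cell types, was at the lower end (1.79 ± 0.16).

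*Plcg2* (chromosome 8, 117498291 to 117635142, plus strand), the gene that carries the variant, was 219.9, 159, 261 and 271 CPM in CD11b+ and 7.53, 7.55, 8.54 and 7.08 CPM in cortex libraries. Mouse 335 had the lowest level among the CD11b+ libraries, and the cortex libraries were within a narrow range below all of them (4.89 ± 0.20, adjusted p 4.47e-07). Among 15 phospholipase C genes, 3 were enriched and 7 depleted. In addition to *Plcg2*, *Plcb2* (4.68 ± 0.20) and *Plcb3* (2.39 ± 0.13), which couple to G proteins, were enriched. *Plcg1*, the ubiquitous paralogue of *Plcg2*, was higher in CD11b+ cells by less than 2-fold (126, 104, 116 and 134 and 56.5, 64.1, 70.5 and 59.6 CPM, 0.94 ± 0.12). *Plcb1*, abundant in cortical neurons, was 21.8, 24.8, 7.2 and 7.4 and 242, 195, 209.7 and 196 CPM (-3.79 ± 0.45). *Plcz1* had no count in any CD11b+ library and 228 counts over the 4 cortex libraries. With 3 counts over the CD11b+ group as the floor, it was at least 38.5-fold lower, a bound that covers counting error only.

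Calcium release and entry genes varied in direction. Of 18 genes, 6 were enriched and 10 depleted, compared with 26.3% and 30% of all genes. Among the inositol trisphosphate receptors, *Itpr2* (2.91 ± 0.22) and *Itpr3* (3.95 ± 0.22) were enriched. *Orai1*, the pore of store-operated calcium entry, was 66.9, 50.9, 72.6 and 70.3 CPM in CD11b+ and 9.15, 7.55, 8.43 and 6.88 CPM in cortex libraries (3.03 ± 0.15). By contrast, *Ryr3*, a calcium release channel of excitable cells, was the most depleted (-5.48 ± 0.56 [-6.11]). The pumps *Atp2a2* (-1.20 ± 0.10), *Atp2b1* (-1.61 ± 0.18) and *Atp2b2* (-4.13 ± 0.72 [-5.14]) were depleted as well.

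The DAM genes were enriched to differing degrees. Of 9 stage 1 genes, 8 were enriched (median log2FC 4.11), and of 21 stage 2 genes, 19 (median 3.57). *Cst7*, a cystatin of plaque-associated microglia, was 636, 619, 932 and 1001 CPM in CD11b+ and 35.1, 40.6, 31.8 and 32.3 CPM in cortex libraries (4.51 ± 0.22). *Apoe*, which astrocytes express in abundance, was 7246, 7901, 9244 and 9565 and 1770.0, 1697, 1784 and 1949 CPM and had a smaller ratio (2.24 ± 0.17). In both genes, mice 394 and 405 were the highest CD11b+ libraries and the groups did not overlap. *Fth1*, ferritin heavy chain, was 6849.6, 17473, 4091 and 3802 CPM in CD11b+ cells, highest in mouse 335, and 2108, 2007, 1819 and 1994 CPM in cortex (2.02 ± 0.49 [1.33]). The lysozyme *Lyz2* (4.83 ± 0.14) and the cathepsin *Ctsd* (4.11 ± 0.21) were among the higher ratios of stage 1. In stage 2, the inhibitory receptor *Lilrb4a* had the highest ratio (6.92 ± 0.56, 75.2, 39.0, 189 and 132 CPM in CD11b+ and 0.905, 1.12, 0.645 and 0.917 CPM in cortex libraries). The metalloproteinase inhibitor *Timp2* (0.93 ± 0.13) and the adhesion molecule *Cadm1* (0.43 ± 0.17) were called below 2-fold, and *Cadm1* lost its call when any library but that of mouse 335 was left out (adjusted p 0.0730 to 0.106).

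**Figure D4:**
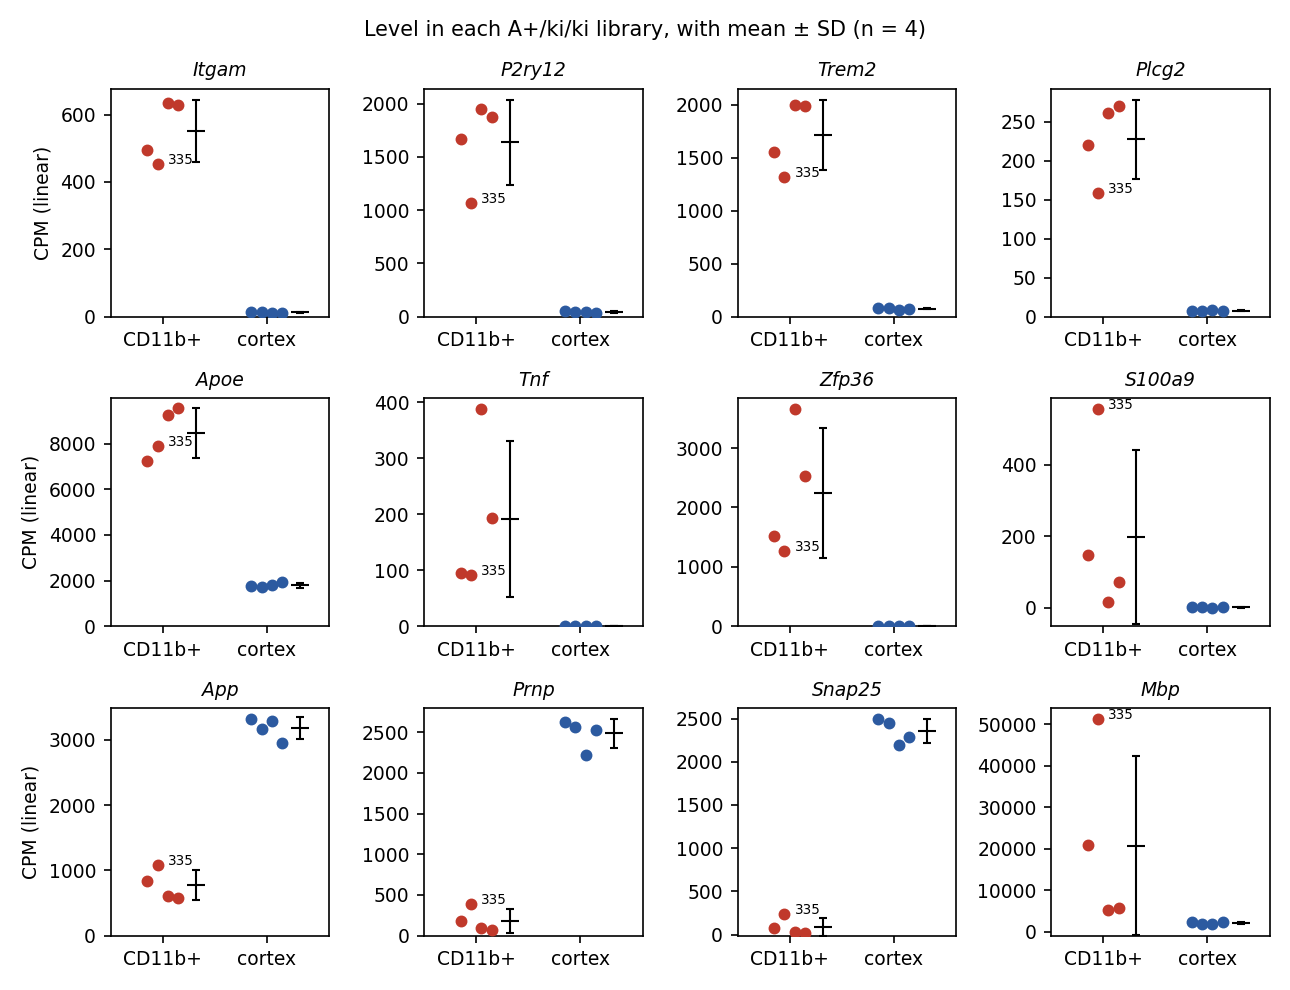
CPM of 12 genes in each A+/ki/ki library on linear axes, with red points for CD11b+ and blue points for cortex libraries, mouse 335 marked, and the mean ± SD beside each group (n = 4). The groups do not overlap in any panel, and the CD11b+ libraries differ widely among themselves for Tnf, S100a9, Mbp, Snap25 and Prnp.

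In 3 further immune lists, every gene was enriched. These were all 18 antigen presentation genes (median log2FC 4.24), all 20 Toll-like and NOD-like receptor genes (4.71) and all 20 type I interferon response genes (3.15). *B2m*, the light chain of class I molecules, averaged 3116 ± 394 CPM in CD11b+ and 148 ± 13.4 CPM in cortex libraries (4.40 ± 0.17). The class II gene *H2-Eb1* was 203, 167, 76.2 and 123 CPM in CD11b+ cells, lowest in mouse 394, and 5.46, 2.88, 2.82 and 2.58 CPM in cortex (5.38 ± 0.41). *Cd14*, a co-receptor for bacterial lipopolysaccharide, was 326, 243, 712 and 438 CPM in CD11b+ cells, highest in mouse 394, and 7.82, 9.89, 7.55 and 8.52 CPM in cortex (5.67 ± 0.37). *Nlrp3* had the highest ratio of the receptor list (5.93 ± 0.36) and *Tlr3* the lowest (2.23 ± 0.17). Among interferon response genes, the values extended from *Ifit1* (2.84-fold) to *Ifi204* (5.89 ± 0.27).

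Of 20 complement genes, 14 were enriched and 1 was depleted. *C1qa*, *C1qb* and *C1qc*, which encode the chains of C1q, were enriched alike (4.84 ± 0.16, 4.96 ± 0.18 and 4.92 ± 0.16), and *C1qa* was 3748, 3731, 4104 and 4216 CPM in CD11b+ and 143, 159, 125 and 123 CPM in cortex libraries. *Cd55*, an inhibitor of complement on cell surfaces, was the depleted gene (2.32, 2.89, 0.775 and 0.981 and 4.04, 3.92, 3.4 and 2.8 CPM, with overlapping ranges, -1.02 ± 0.41, adjusted p 0.0474), and this call was lost when any library but that of mouse 335 was left out (adjusted p 0.0506 to 0.100). Of 22 integrin genes, 14 were enriched and 2 depleted. Beside *Itgam*, its partner *Itgb2* (5.29 ± 0.21) and *Itgb5* (4.36 ± 0.17) were enriched, and *Itga11* (-3.12 ± 0.41) and *Itgb8* (-1.88 ± 0.55) were depleted. Of 16 purinergic genes, 9 were enriched and 5 depleted, compared with 26.3% and 30% of all genes. *P2ry13* (5.04 ± 0.21) and the ATP-hydrolysing enzyme *Entpd1* (4.79 ± 0.20) were enriched. The adenosine receptors *Adora1* (-2.16 ± 0.35) and *Adora2a* (-4.51 ± 0.42) and *Nt5e*, which forms adenosine (-3.46 ± 0.52), were depleted.

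The largest ratios belonged to inflammatory, early response and neutrophil genes. Among called genes with at least 50 CPM in the higher group and no overlap, the 10 largest were *Tnf*, *Ngp*, *S100a8*, *Ltf*, *S100a9*, *Zfp36*, *Ccl4*, *Il1b*, *Atf3* and *Rgs1*. *Tnf*, a cytokine, was 95.3, 90.6, 387 and 192 CPM in CD11b+ libraries and 0, 0.13, 0 and 0.0437 CPM in cortex libraries (11.98 ± 0.95). The cortex level rests on 7 counts over 4 libraries, 2 of them without any, and the log2FC was 13.19 without cortex mouse 203. *Il1b* was 61.6, 61.0, 227 and 110.1 and 0.517, 0.285, 0.301 and 0.328 CPM (8.33 ± 0.60), the transcription factor *Atf3* 441, 330.2, 1584 and 814 and 2.59, 2.67, 2.65 and 2.42 CPM (8.26 ± 0.61), and *Zfp36*, which destabilizes cytokine mRNAs, 1524, 1258, 3652 and 2534 and 4.78, 4.9, 5.51 and 5.79 CPM (8.74 ± 0.45). All 4 genes were highest in mouse 394 and second highest in mouse 405. The chemokine *Ccl4* followed this order too (347, 271, 665 and 459.7 and 1.42, 1.69, 0.689 and 1.44 CPM, 8.38 ± 0.46). The regulator of G protein signalling *Rgs1* was highest in mice 405 and 394 (62.3, 44.2, 155 and 162 and 0.291, 0.545, 0.387 and 0.415 CPM, 7.99 ± 0.58).

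Of 26 cytokine and chemokine genes, 19 were enriched and 3 depleted (median log2FC 4.80). The depleted ones are ligands that neurons and glia direct to microglia or release in the tissue. *Cx3cl1*, the ligand of CX3CR1, was 28.6, 51.3, 18.1 and 13.8 CPM in CD11b+ and 707, 696, 793 and 705 CPM in cortex libraries (-4.70 ± 0.43). *Il34*, a ligand of CSF1R, was 6.38, 9.999, 4.48 and 3.76 and 52.5, 56.8, 66.5 and 58.5 CPM (-3.25 ± 0.30), and *Cxcl14* had a log2FC of -2.27 ± 0.35. *Cx3cl1* and *Il34* thus differed in direction from the receptor genes *Cx3cr1* and *Csf1r*. The chemokine *Ccl3* was strongly enriched (6.96 ± 0.33).

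Of 23 immediate early genes, 18 were enriched and 4 depleted (median log2FC 3.93). These genes are transcribed within minutes of a stimulus. *Jun* was 1235, 967, 3112 and 2114 CPM in CD11b+ and 52.7, 45.3, 60.7 and 51.3 CPM in cortex libraries (5.14 ± 0.41), and *Egr1* 1002, 763, 2475 and 1562 and 291, 275, 234 and 203 CPM (2.53 ± 0.37). Mouse 394 was the highest for both, and the summed list was 8763, 7202, 25562 and 14867 CPM in CD11b+ libraries and 1019.7 to 1307 CPM in cortex. The depleted members were *Egr4* (-5.55 ± 0.57 [-6.48]), *Npas4* (-4.15 ± 0.20), *Arc* (-4.00 ± 0.81 [-5.39]) and *Egr3* (-2.13 ± 0.26), which depend on neuronal activity. *Arc* was 4.4, 25.5, 3.93 and 1.92 CPM in CD11b+ and 177, 169, 127 and 98.0 CPM in cortex libraries. CD11b+ cells, unlike cortex, were dissociated with enzymes before lysis, and the step cannot be told apart from the cell type here. Heat shock genes were mixed, with 2 enriched and 2 depleted of 11. *Hspb1* (2.01 ± 0.38) and *Bag3* (1.59 ± 0.13) were enriched, and *Hsph1* (-2.82 ± 0.20) and *Hsp90aa1* (-1.68 ± 0.16) depleted.

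Markers of other CD11b-bearing cells were enriched in the preparations. All 12 border macrophage genes were strongly enriched (median log2FC 4.53), and they summed to 1095, 785, 937 and 1038 CPM in CD11b+ and 19.6 to 32.5 CPM in cortex libraries. *Mrc1*, which encodes the mannose receptor CD206, was 152, 96.2, 100.4 and 90.0 CPM in CD11b+ and 1.94, 3.27, 2.02 and 2.49 CPM in cortex libraries (5.49 ± 0.26), and *Cd163* had the lowest ratio (3.62 ± 0.23). The scavenger receptor *Stab1* was the most abundant member by CPM (5.34 ± 0.26) and made up most of the summed level over the CD11b+ libraries. All 7 monocyte genes tested were enriched, among them the chemokine receptor *Ccr2* (23.3, 21.4, 12.8 and 19.2 and 0.162, 0.259, 0.387 and 0.328 CPM, 6.03 ± 0.31). *Chil3* was 28.9, 90.5, 2.66 and 14.9 CPM in CD11b+ libraries, highest in mouse 335, and at most 0.197 CPM in cortex (8.37 ± 1.28 [7.26], and 9.01 without cortex mouse 222).

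All 12 neutrophil genes were strongly enriched and had the highest median of the lists (8.90). *S100a9*, a calcium-binding protein of neutrophil granules and cytosol, was 149, 556, 14.3 and 71.8 CPM in CD11b+ and 0.162, 0.908, 0.129 and 0.24 CPM in cortex libraries (9.09 ± 1.39 [7.80], and 10.07 without cortex mouse 203). *S100a8* was 119, 455, 10.8 and 52.8 and 0.097, 0.363, 0.108 and 0.24 CPM (9.58 ± 1.38 [8.22]), and the granule protein genes *Ngp* 127, 498, 7.8 and 55.9 and 0.0323, 0.285, 0.151 and 0.0873 CPM (10.21 ± 1.52 [8.80]) and *Ltf* 90.6, 318, 5.31 and 40.5 and 0.291, 0.156, 0.043 and 0.284 CPM (9.21 ± 1.43 [7.93]). In all 4 genes, mouse 335 was the highest and mouse 394 the lowest of the CD11b+ libraries, and even the latter was above every cortex library. The most abundant member, *Csf3r*, did not follow this order, since it was 685, 468, 877 and 902 CPM in CD11b+ libraries and lowest in mouse 335. Outside mouse 335, *Csf3r* made up most of the summed neutrophil level of each CD11b+ library. *Mmp8* had 912 counts over the CD11b+ libraries and none in cortex, at least 600.1-fold higher with 3 counts over the cortex group as the floor. This bound too covers counting error only, and not the spread between mice. Without mouse 335, 10 of the 12 genes passed the count minimum, all enriched, and their median was 7.88 compared with 9.15 for the same genes with it.

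Of 16 T, B and NK cell genes, 8 passed the count minimum, 6 of them enriched and 2 depleted. *Cd3d*, *Cd3e*, *Cd3g* and *Cd8a*, which define T cells, did not pass it. The B cell gene *Cd79b* was enriched (9.08, 6.31, 5.15 and 7.27 and 0.226, 0.441, 0.108 and 0.131 CPM, 4.95 ± 0.45). *Cd4* was lower in CD11b+ cells (3.53, 3.05, 3.21 and 1.92 and 21.9, 9.68, 11.9 and 19.9 CPM, -2.44 ± 0.32), as was the kinase *Lck* (-1.44 ± 0.39). None of the 5 erythrocyte genes was called. *Hbb-bs*, a beta globin, was 12.5, 64.5, 34.6 and 21.05 CPM in CD11b+ and 53.4, 6.75, 10.3 and 6.59 CPM in cortex libraries, with overlapping ranges and a high value in cortex mouse 184 (0.79 ± 0.79). Without that cortex library, the log2FC was 2.06 (adjusted p 0.0126). The globin genes have near-identical copies, and their counts are uncertain.

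Neuronal transcripts were depleted but present in all CD11b+ libraries. All 18 pan-neuronal genes were depleted, 16 of them strongly (median log2FC -4.50, and -5.64 without mouse 335). *Snap25*, a component of the synaptic vesicle fusion machinery, was 79.1, 241, 26.5 and 19.4 CPM in CD11b+ and 2497, 2443, 2193 and 2287 CPM in cortex libraries (-4.68 ± 0.83). The calcium sensor *Syt1* was 16.2, 50.4, 4.93 and 5.27 and 1236, 1199, 1219 and 1189.6 CPM (-5.98 ± 0.84 [-7.08]). In both genes, mouse 335 was the highest CD11b+ library and the groups did not overlap. The growth-associated protein *Gap43* was the least depleted (-2.65 ± 0.78). *Ndrg4* (-5.65 ± 0.77 [-6.75]) was among the most depleted. Without mouse 335, *Snap25* had a log2FC of -5.80 and *Gap43* of -3.99.

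Markers of cortical excitatory neurons (12 depleted of 13, median log2FC -4.60) and interneurons (11 of 12, -4.87) followed. Without mouse 335, these medians were -5.70 and -6.10. *Slc17a7*, the vesicular glutamate transporter, was 33.6, 144, 17.6 and 11.1 CPM in CD11b+ and 1113, 1306, 1423 and 1156 CPM in cortex libraries (-4.60 ± 0.83 [-5.89]). *Camk2a*, whose mRNA is transported into dendrites, had a smaller ratio (286, 1347, 189 and 107 and 2386, 2897, 3429 and 2646 CPM, -2.56 ± 0.75 [-3.86]), and *Grin2b*, an NMDA receptor subunit, a larger one (-6.34 ± 0.70 [-7.38]). Among interneuron genes, *Gad1* was 4.78, 17.3, 2.27 and 1.63 and 379.8, 291, 319 and 363 CPM (-5.71 ± 0.79 [-6.86]), and *Vip* had the largest ratio (-6.27 ± 0.40). *Pvalb* was 6.81, 30.2, 0.664 and 2.9 and 50.6, 42.2, 33.4 and 31.5 CPM without overlap and was not called (-1.96 ± 0.90, adjusted p 0.0746). Without mouse 335, it was called (-3.48, adjusted p 4.58e-04).

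Synaptic genes were depleted in 29 of 30 cases (median log2FC -4.08, and -4.87 with all 30 depleted without mouse 335). The exception was *Rims1*, an organizer of the presynaptic active zone, with 212, 696, 92.4 and 76.4 CPM in CD11b+ and 306, 346, 382 and 293 CPM in cortex libraries (-0.30 ± 0.65, adjusted p 0.683). Its level in mouse 335 exceeded every cortex library, and without that mouse its log2FC was -1.37 (adjusted p 0.00504). *Vamp2* (-2.71 ± 0.33) and *Cplx2* (-3.64 ± 0.74 [-4.77]), both of the vesicle fusion machinery, were among the most abundant synaptic genes in cortex by CPM.

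Of 17 neuropeptide and granin genes, 16 were depleted, all of them strongly (median log2FC -4.89). Without mouse 335, all 17 were depleted (median -5.74). *Penk*, the enkephalin precursor, was 1.5, 5.08, 0.609 and 0.327 CPM in CD11b+ and 375, 211, 283 and 423 CPM in cortex libraries (-7.44 ± 0.88 [-8.64]), and *Tac1*, the substance P precursor, 0.435, 0.909, 0.0553 and 0 and 68.1, 35.5, 41.4 and 71.9 CPM (-7.31 ± 0.76 [-8.37]). *Sst* was 2.46, 15.3, 1.55 and 0.981 and 217, 198, 231 and 256 CPM (-5.48 ± 0.91 [-7.08]). Each was highest in mouse 335 among CD11b+ libraries, and each was far lower there than in any cortex library. *Pcsk1n*, a granin-like inhibitor of prohormone convertase, was the exception (168, 971, 84.6 and 62.3 and 779.6, 749, 839 and 901 CPM, -1.35 ± 0.82, adjusted p 0.161). Its level in mouse 335 was again above that of cortex, and without this mouse it was depleted (-2.95, adjusted p 4.83e-05).

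The upstream sequences of 3 of these genes are shown because they hold TGACGTC, a match to the cyclic AMP response element through which neuronal activity can act on peptide genes. It overlaps its own reverse complement GACGTCA in each of them, so that 8 letters are in capitals.
Sst (chr16:23890845-23890964, minus strand): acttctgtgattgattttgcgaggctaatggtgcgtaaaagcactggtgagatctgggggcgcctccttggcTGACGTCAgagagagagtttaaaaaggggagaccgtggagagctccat
Scg2 (chr1:79440027-79440146, minus strand): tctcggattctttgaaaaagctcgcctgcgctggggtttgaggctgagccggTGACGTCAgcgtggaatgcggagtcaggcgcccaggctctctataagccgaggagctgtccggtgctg
Chgb (chr2:132781522-132781641, plus strand): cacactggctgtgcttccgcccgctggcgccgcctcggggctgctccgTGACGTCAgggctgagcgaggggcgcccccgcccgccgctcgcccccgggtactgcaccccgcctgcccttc
Their log2FC values were -5.48, -5.07 and -4.20, and -7.08, -6.16 and -5.42 without mouse 335. TGACGTC on either strand was in the windows of 6 of the 15 neuropeptide and granin genes with a window, compared with 5.56% of all tested, 2.7% of strongly enriched and 4.38% of strongly depleted genes. None of the 15 pan-myeloid genes with a window held it, nor did any of the 17 synaptic or 10 cortical excitatory neuron genes with one. Other lists held it, with 4 of 19 immediate early genes, 3 of 9 long noncoding RNAs, 2 of 12 interneuron genes and 8 of 62 ribosomal protein genes with a window.

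The 10 largest depletions among abundant genes were *Trank1*, *Cntnap5a*, *Kcnv1*, *Penk*, *Tac1*, *Rprm*, *Unc5d*, *Ano3*, *Meg3* and *Csmd1*. *Trank1* was 1.21, 2.03, 0.332 and 0.368 CPM in CD11b+ and 257, 379, 412 and 445 CPM in cortex libraries (-8.57 ± 0.64 [-9.17]). The potassium channel modulator *Kcnv1* was 0.145, 1.39, 0.111 and 0.286 and 92.0, 87.3, 87.1 and 80.8 CPM (-7.51 ± 0.63 [-8.80]), and the maternally expressed noncoding RNA *Meg3* 8.16, 21.8, 7.42 and 4.29 and 1043, 1108, 1104 and 1224 CPM (-6.75 ± 0.56 [-7.39]). Mouse 335 was the highest CD11b+ library in each of the 3 genes. The cell adhesion gene *Cntnap5a* (-7.66 ± 0.41 [-8.33]), *Rprm* (-7.30 ± 0.49 [-8.16]), the netrin receptor *Unc5d* (-6.99 ± 0.34), *Ano3* (-6.84 ± 0.71 [-7.90]) and *Csmd1* (-6.72 ± 0.46) were at most 3.1 CPM in every CD11b+ library.

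Whole brain and temporo-occipital cortex differ in the neurons they contain, and genes of neurons outside this region varied in direction. Of 23 such genes, 5 were enriched, 9 depleted and 9 not called. Depleted members included the dopamine receptors *Drd1* (0.531, 0.588, 0.498 and 0.163 and 61.6, 33.9, 41.3 and 61.7 CPM, -6.82 ± 0.39) and *Drd2* (-5.96 ± 0.68 [-7.12]) and the phosphatase inhibitor *Ppp1r1b* (-4.52 ± 0.79 [-5.52]), which striatal projection neurons express. Cortex mice 184 and 222 had the higher levels of *Drd1* and *Penk*. Of cerebellar granule and Purkinje cell genes, *Gabra6*, *Cbln3* and *Pcp2* (4.98 ± 1.36 [3.44]) were enriched by edgeR and were not called with limma-voom (adjusted p 0.0581, 0.224 and 0.196). *Gabra6* was 7.39, 13.7, 0 and 1.59 CPM in CD11b+ libraries, with none in mouse 394 and the highest level in mouse 335, and 0, 0.0259, 0 and 0.131 CPM in cortex (6.93 ± 1.61, and 8.75 without cortex mouse 222). *Cbln3* (21.6, 58.9, 0 and 4.21 and 0.582, 0.467, 0.0861 and 0.218 CPM, 6.01 ± 1.55 [4.75]) had the same order of CD11b+ libraries. The other cerebellar genes of the list were not called, with *Cbln1* at -0.25 ± 0.94 [-1.48], *Zic1* at 0.91 ± 0.54, *Zic2* at 0.72 ± 0.39 and *En2* at 1.26 ± 0.86 [0.24] (adjusted p 0.815, 0.152, 0.126 and 0.210). *Zic1* and *En2* were called without CD11b+ mouse 394 (adjusted p 0.0436 and 0.0478) and *Zic2* without CD11b+ mouse 405 (0.0208). *Slc1a6*, a glutamate transporter of Purkinje cells, is in no list and was named after its values were seen. It was 0.338, 0.695, 0 and 0.0409 CPM in CD11b+ and 10.4, 10.2, 9.85 and 10.2 CPM in cortex libraries and was depleted (-5.26 ± 0.68 [-6.27]), opposite to *Pcp2*. Without mouse 335, *Gabra6* did not reach the count minimum, and 4 of 21 genes of the list were enriched and 9 depleted. *Prkcd*, listed for thalamic neurons and also a kinase of the TREM2 pathway list, was 330.5, 231, 393 and 417 and 11.5, 13.9, 14.7 and 14.4 CPM (4.65 ± 0.22) and was lowest in mouse 335, like the microglial genes.

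Oligodendrocyte genes split. Of 14, 3 were enriched and 6 depleted (median log2FC -1.08). *Mbp*, myelin basic protein, was 20837, 51364, 5245 and 5563 CPM in CD11b+ and 2317, 1801, 1729 and 2193 CPM in cortex libraries (3.37 ± 0.76 [2.41]), and *Mobp*, another myelin protein, 8060.5, 17912, 1872 and 1794 and 698, 555, 479 and 641 CPM (3.64 ± 0.77 [2.74]). Both were highest in mouse 335, and mice 394 and 405 had the lowest levels of the CD11b+ libraries. The mRNAs of both are carried into the myelin sheath. *Trf*, transferrin, was 2017, 1653, 2048 and 2194 and 376, 296, 262 and 296 CPM and had no such spread (2.69 ± 0.17). By contrast, the tight junction gene *Cldn11* (-2.60 ± 0.68 [-3.54]), *Opalin* (-2.09 ± 0.67 [-3.24]) and *Mog* (-1.99 ± 0.65 [-2.89]) were depleted. Without CD11b+ mouse 244, *Opalin* and *Mog* were not called (adjusted p 0.0570 and 0.0507), and neither was *Opalin* without cortex mouse 184 (0.0513). Without mouse 335, the same 3 genes were enriched and 11 depleted (median -1.69).

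Astrocyte genes were depleted to a smaller extent than neuronal ones. Of 18, 16 were depleted and none enriched (median log2FC -1.80, and -2.43 without mouse 335). *Slc1a2*, the main glutamate transporter, was 509, 811, 244 and 149 CPM in CD11b+ and 2119, 2392, 2711 and 1997 CPM in cortex libraries (-2.43 ± 0.49). *Serpina3n*, which is induced in reactive astrocytes, had the largest ratio (-3.30 ± 0.46). *S100b* was 285, 675, 71.0 and 90.9 and 169, 156, 148 and 140.2 CPM and was not called (0.87 ± 0.65 [-0.02], adjusted p 0.243), and neither was *Ndrg2* (-1.27 ± 0.59 [-2.07]), which was called without mouse 335 (adjusted p 0.00121). In oligodendrocyte precursors, 10 of 11 genes were depleted, such as *Lhfpl3* (-4.43 ± 0.61 [-5.24]), *Sox10* (-3.18 ± 0.58 [-4.02]) and *Olig1* (-2.62 ± 0.65 [-3.63]). *Cspg4*, which encodes NG2 and is also found on pericytes, was the other one (32.8, 33.6, 30.2 and 40.8 and 22.6, 23.9, 30.4 and 22.9 CPM, 0.46 ± 0.14).

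All 14 endothelial genes were enriched (median log2FC 2.42) within a range of 1.70 to 2.74, and none strongly. *Cldn5*, a tight junction protein of the blood-brain barrier, was 264, 389, 151 and 101 CPM in CD11b+ and 41.9, 50.9, 59.2 and 36.4 CPM in cortex libraries (2.27 ± 0.41), and the VEGF receptor *Flt1* 545, 474, 278 and 262 and 52.6, 69.3, 86.4 and 51.6 CPM (2.58 ± 0.30). Mice 244 and 335 had the higher levels of both. Of 11 mural cell genes, 7 were enriched (5 without mouse 335), the smooth muscle genes *Myh11* (3.83 ± 0.28) and *Acta2* (106, 157, 90.3 and 80.8 and 8.66, 11.3, 17.3 and 8.04 CPM, 3.26 ± 0.32) most of all. The pericyte genes *Vtn* (0.71 ± 0.41) and *Kcnj8* (0.18 ± 0.49) were not called. *Vtn* was called without CD11b+ mouse 405 (0.97, adjusted p 0.0273). Vascular fibroblast genes were depleted in 3 of 7 cases, among them decorin, *Dcn* (8.11, 7.27, 5.65 and 3.19 and 27.4, 25.6, 26.1 and 19.7 CPM, -2.03 ± 0.28). Of 10 choroid plexus and ependymal genes, 3 were enriched and 2 depleted. *Ttr*, transthyretin, was 929, 2537, 154 and 112 CPM in CD11b+ and 471, 56.6, 16.2 and 49.4 CPM in cortex libraries, with mouse 335 and cortex mouse 184 high in their groups, and was not called (2.65 ± 1.31 [1.43]). It was called without cortex mouse 184 (4.51, adjusted p 0.0157). Without mouse 335, none of the choroid plexus genes was enriched.

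Most ribosomal protein genes were enriched, and 40 of the 76 nuclear genes of the respiratory chain were called lower. Of 85 cytoplasmic ribosomal protein genes, 79 were enriched and none depleted (median log2FC 1.72). *Rplp1* was 1314, 2498, 1781 and 1461 CPM in CD11b+ and 552, 514, 510.2 and 535 CPM in cortex libraries (1.74 ± 0.21). *Rps4l* was the 1 member called lower (-0.44 ± 0.15), but not without CD11b+ mouse 405 or cortex mouse 184 or 222 (adjusted p 0.0541 to 0.0798). Many of these genes have processed copies in the genome, and counts of uniquely mapped reads depend on how far those differ. Of the respiratory chain genes, 40 were called lower and 2 higher, compared with 39.8% and 36.8% of all genes. At the 2-fold limit, 12 were depleted and none enriched, compared with 30% and 26.3% of all genes (median log2FC -0.57). The count of depleted genes depended on mouse 335, without which it was 24 of 76 (median log2FC -0.79). *Cox5a* had the lowest ratio (-1.51 ± 0.16), and *Atp5b*, the beta subunit of ATP synthase, was 469, 693, 422 and 390.2 and 1010.3, 957, 989 and 946 CPM (-0.98 ± 0.19). Of the 13 genes of mitochondrial DNA, 4 were enriched, near the 26.3% of all genes, and 1 without mouse 335, when the list median moved from 1.19 to 0.13. *mt-Co1*, the most counted gene in cortex, was 24408, 61475, 13320.2 and 12163 and 16604, 16222, 15426 and 16955 CPM, with overlapping ranges (0.77 ± 0.51 [0.05], adjusted p 0.198). *mt-Rnr2*, a mitochondrial ribosomal RNA, was 9552, 48712, 3699 and 2909 and 4210.0, 3705, 3884 and 3979.7 CPM and was not called (2.04 ± 0.86 [0.47], adjusted p 0.0567). It was called without CD11b+ mouse 394 or 405 (2.38 and 2.40, adjusted p 0.0295 and 0.0210).

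Genes for glycolysis and glucose uptake varied in direction. Of 25 genes, 6 were enriched and 10 depleted, compared with 26.3% and 30% of all genes. The hexokinases differed in direction. *Hk2* was 238, 136, 241 and 268 CPM in CD11b+ and 7.66, 7.32, 7.51 and 7.56 CPM in cortex libraries (4.88 ± 0.23), and *Hk3* had a log2FC of 5.28 ± 0.21, whereas *Hk1*, the main hexokinase of neurons, was 80.5, 111, 55.3 and 56.0 and 343, 361, 405 and 366 CPM (-2.28 ± 0.24). The ranges of the hexokinases did not overlap. Per kilobase of exon, *Hk1* was 43.2 CPM and *Hk2* 1.26 CPM in cortex, and 8.88 and 37.0 CPM in CD11b+ cells, so that their order was inverted. Sugar transporters diverged too. The fructose transporter *Slc2a5*, counted in this list and among the homeostatic microglial genes, was enriched (5.01 ± 0.21). The neuronal *Slc2a3* was depleted (-2.92 ± 0.17). The enolase *Eno2*, a neuronal marker, was depleted (-5.15 ± 0.79 [-6.33]), and *Eno1* was lower by less than 2-fold (-0.88 ± 0.15). *Pfkm* (-2.76 ± 0.46) and *Pfkp* (-3.34 ± 0.39) were both depleted, as were the aldolases *Aldoa* (-1.23 ± 0.11) and *Aldoc* (-2.15 ± 0.60 [-2.96]). The lactate dehydrogenases *Ldha* (-0.29 ± 0.09) and *Ldhb* (-0.41 ± 0.10) were called lower with small ratios, *Ldha* not without CD11b+ mouse 244 or 405 (adjusted p 0.0618 and 0.0808).

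Lysosomal genes were enriched in 23 of 29 cases (median log2FC 3.57). The cathepsin *Ctsb* was 4971, 3831, 6439 and 6519 CPM in CD11b+ and 728, 725, 663 and 661 CPM in cortex libraries (2.97 ± 0.21). The 4 depleted members were subunits of the proton pump, among them *Atp6v1a* (-1.96 ± 0.10), *Atp6v1b2* (159, 168, 170.4 and 166 and 692, 704, 704 and 675 CPM, -2.06 ± 0.09) and *Atp6v1g2* (-3.44 ± 0.62 [-4.39]), which also acidify synaptic vesicles. Genes of cholesterol synthesis were depleted in 10 of 19 cases and enriched in 1. *Ebp* was the enriched gene (1.05 ± 0.09). Sterol efflux and lipid handling genes were enriched in 10 of 18 cases and depleted in 3. *Npc2* (3.64 ± 0.15), lipoprotein lipase *Lpl* (2.57 ± 0.20) and *Ch25h*, which makes 25-hydroxycholesterol (4.31 ± 0.32), were enriched. *Cyp46a1*, the neuronal enzyme that clears brain cholesterol, was depleted (-4.71 ± 0.48 [-5.32]).

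Of 19 cell cycle genes, 18 were enriched at low levels. *Top2a* was 17.5, 19.9, 22.5 and 31.0 CPM in CD11b+ and 0.614, 1.17, 1.29 and 1.57 CPM in cortex libraries (4.27 ± 0.31), and the DNA replication factor *Mcm3* 56.8, 43.6, 62.2 and 60.1 and 3.59, 4.0, 4.45 and 5.0 CPM (3.71 ± 0.16). Of 10 long noncoding RNAs, 3 were enriched and 5 depleted. The nuclear RNAs *Malat1* (596, 518, 1178 and 957 and 92.4, 108, 91.7 and 141 CPM, 2.91 ± 0.30) and *Neat1* (2.80 ± 0.27) were enriched and highest in mouse 394. *Gas5* was 144, 399, 139 and 119.8 and 56.2, 44.0, 38.0 and 52.6 CPM and highest in mouse 335 (2.07 ± 0.40).

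Of the genes linked to the transgene, *App* and *Prnp* were depleted. *App*, to which reads of the mouse gene and of the chimeric transgene can both be counted, was 834, 1080.0, 613 and 577 CPM in CD11b+ and 3314, 3169, 3288 and 2944 CPM in cortex libraries (-2.03 ± 0.22, adjusted p 5.90e-05). *Prnp*, whose promoter drives the transgene, was 178, 384, 90.7 and 69.8 and 2629, 2563, 2224 and 2532 CPM (-3.78 ± 0.54, adjusted p 2.90e-04). Both were highest in mouse 335 among CD11b+ libraries, and without this mouse the log2FC was -2.22 and -4.45.

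Among 29 genes near or in loci linked to Alzheimer's disease, 19 were enriched and 6 depleted (median log2FC 2.24). *Cd33*, a sialic acid-binding inhibitory receptor, had the highest ratio (634, 381, 775 and 799 and 11.4, 13.8, 11.8 and 14.4 CPM, 5.65 ± 0.28). Progranulin, *Grn*, was 1791, 1557, 2226 and 2395 and 97.0, 112, 107 and 97.8 CPM (4.27 ± 0.19). The depleted genes included *Bace1*, the beta-secretase (18.6, 15.5, 13.7 and 17.2 and 64.3, 69.4, 74.4 and 64.0 CPM, -2.07 ± 0.12), *App* and *Clu*, an astrocytic apolipoprotein (239, 489, 119.9 and 68.2 and 942, 978, 989 and 914 CPM, -2.06 ± 0.54 [-2.73]). Enriched members thus included receptors and their signalling genes (*Trem2*, *Plcg2*, *Inpp5d*, *Cd33*).

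The contrast was then compared between genotypes, to ask whether the difference between CD11b+ cells and cortex was the same with wild-type *Plcg2*. In A+/wt/wt mice, 15023 of 19942 genes were called (75.3%), 5211 enriched (26.1%) and 5462 depleted (27.4%). These calls came from a fit of all 16 libraries, which share 1 estimate of the spread per gene. The A+/ki/ki calls set against them came from the separate fit of the 8 A+/ki/ki libraries. In the fit of 16 libraries, 15677 genes were called in A+/ki/ki mice, compared with 14517 in the separate fit. Of the 18954 genes tested in both, 4508 were enriched in both genotypes, 90.4% of those enriched in A+/ki/ki and 92% of those enriched in A+/wt/wt mice. A further 4955 were depleted in both, 87.2% and 95.1%, respectively. *Plcg2* had a log2FC of 4.89 ± 0.20 in A+/ki/ki and 4.65 in A+/wt/wt mice. The difference of the log2FC values, A+/ki/ki minus A+/wt/wt, was tested as an interaction over all 16 libraries. No gene was called by edgeR (adjusted p of at least 0.854), and 1018 of 19942 genes, 5.1%, were below 0.05 before adjustment. With limma-voom, the count was 0 as well, and the Wald test of DESeq2 called 2, the glutamate transporter gene *Slc1a6* and the channel regulator *Fgf14* of neurons.

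This count depended on mouse 335. Without its CD11b+ library, 1619 of 19878 genes were called (8.14%), 1549 of them (95.7%) with a lower ratio in A+/ki/ki mice. Of the pan-neuronal genes, 16 of 18 were called lower, of the synaptic genes 21 of 30, of the neuropeptide genes 8 of 17, and of the mitochondrial DNA genes 11 of 13. In the pan-neuronal list, the median difference was -0.81 with all libraries and -1.96 without mouse 335. Other lists had lower calls as well, among them the respiratory chain with 19 of 77 genes. The same held for 4 of 11 oligodendrocyte precursor, 2 of 14 oligodendrocyte and 2 of 10 choroid plexus and ependymal genes. No astrocyte or endothelial gene was called, but their median differences moved from -0.77 to -1.38 and from -0.71 to -0.92. None of the homeostatic, DAM or TREM2 to PLCG2 genes was called lower, and 1 homeostatic gene was called higher. The levels of the pan-neuronal genes by library follow. As most of these genes are among the called ones, their levels restate the difference and are no separate support for a cause. The median level of pan-neuronal genes was 3.64, 11.1, 1.35 and 1.13% of mean cortex in the CD11b+ libraries of A+/ki/ki mice 244, 335, 394 and 405. It was 9.98, 5.15, 9.08 and 8.13% in those of A+/wt/wt mice 331, 367, 375 and 380. Thus 3 of the A+/ki/ki libraries were below all A+/wt/wt libraries and mouse 335 above all of them. The part of residual neuronal RNA in the called genes was not tested.

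**Figure D5:**
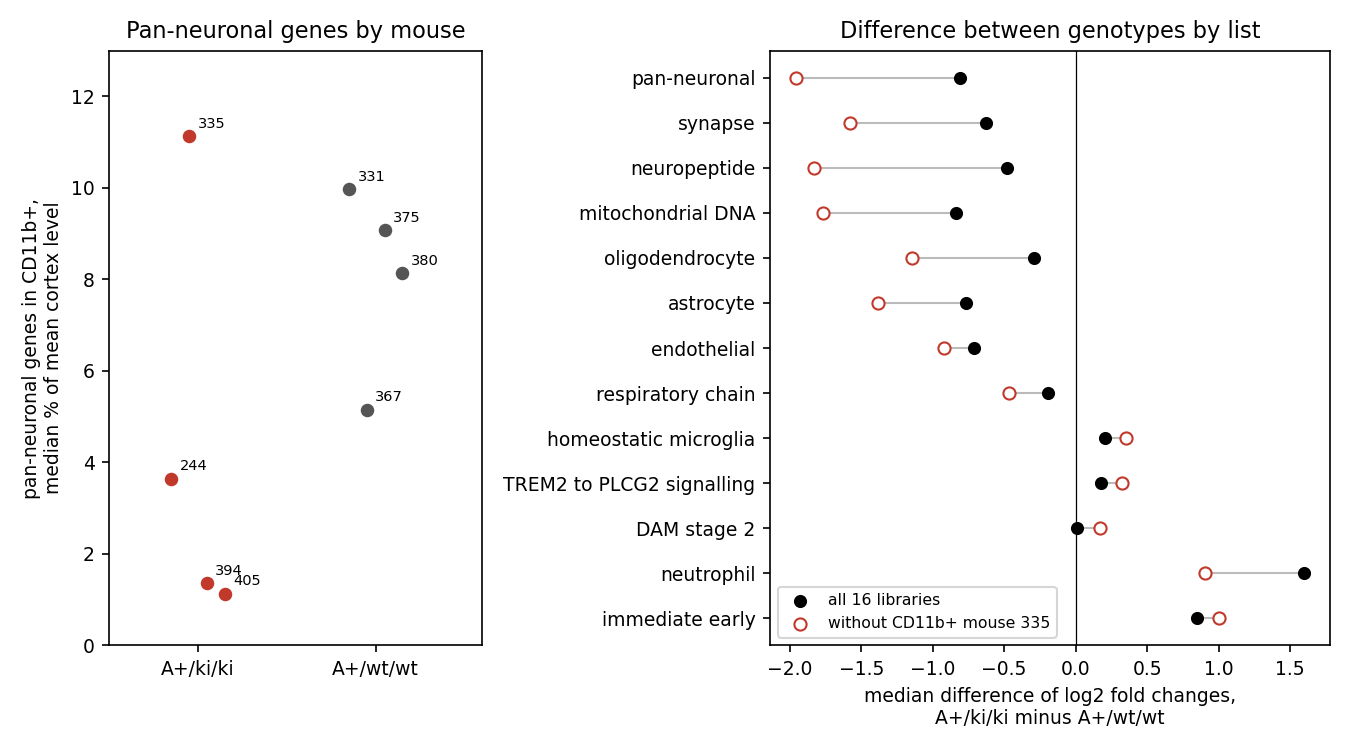
Left, median level of 18 pan-neuronal genes in each CD11b+ library as a percentage of the mean cortex level, by genotype and mouse. Right, median difference of the log2FC (A+/ki/ki minus A+/wt/wt) of 13 gene lists over all 16 libraries (filled) and without CD11b+ mouse 335 (open), where the pan-neuronal median moves from -0.81 to -1.96 and the homeostatic microglial median from 0.20 to 0.35.

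Of the single genes, the 3 lowest unadjusted p in each direction of the difference belonged to genes of low level. *Gm46224*, *Evi2* and *F630028O10Rik* had higher ratios in A+/ki/ki mice, with 2.94 to 4.21, 2.09 to 4.17 and 2.38 to 5.13 CPM in the CD11b+ and at most 0.097 CPM in the cortex libraries of this genotype. *Kcnmb2*, a potassium channel subunit, *Ccbe1* and the hormone gene *Thpo* had lower ratios, with at most 0.29 CPM in CD11b+ and 2.34 to 3.33, 3.42 to 4.85 and 1.87 to 4.24 CPM in cortex libraries. *Kcnmb2* and *Thpo* had 1 and 1 count over all CD11b+ libraries of A+/ki/ki mice. None of the 6 genes was called with all libraries, and all 6 were without mouse 335 (adjusted p 0.00636 to 0.0247). Immediate early genes had a median difference of 0.85, with 11 of 23 at an unadjusted p under 0.05, compared with 5.1% of all genes. Their summed level in the CD11b+ libraries was 8639, 7121, 25169 and 14634 CPM in A+/ki/ki and 6793, 8974, 7402 and 7548 CPM in A+/wt/wt mice, and mice 394 and 405 were above all others. Without mouse 335, 5 of these 23 genes were called with a higher ratio and 1 with a lower one in A+/ki/ki mice.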

How the data were processed

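RNA of CD11b+ cells and of homogenized cortex from female APP/PS1 mice was sequenced. The authors trimmed reads with Trimmomatic 0.39 after FastQC 0.11.7, aligned them to GRCm38 (Gencode M25) with STAR 2.7.9a and, in R 4.2.2, deposited raw gene counts of uniquely mapped primary alignments without regard to strand (Rsubread featureCounts 2.12.0). The deposited variance-stabilized tables, scaled in each tissue apart, and the table of male mice were not used.

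The count tables were joined by gene ID. The 8 A+/ki/ki libraries were fitted with edgeR 4.0.16 (TMM factors, quasi-likelihood F-test, two-sided, R 4.3.3), for genes with 10 counts in 3 or more libraries, and p-values were adjusted by the Benjamini-Hochberg procedure. The standard error is the absolute log2FC divided by the square root of F. The genotype difference was an interaction term over 16 libraries, and the A+/wt/wt contrast was taken from the same fit. Alternatives used DESeq2 1.42.0 and limma 3.58.1. The code was tested on simulated data.

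The groups, 46 gene lists and tests were chosen with earlier results of these data known. Genes named were 14 fixed genes, the 10 largest rises and falls among called genes of at least 50 CPM without overlap, the 5 most abundant genes of each group, the 3 most abundant and the extreme members of each list with up to 3 called members against its median, isozyme pairs and the 3 lowest p of the difference in each direction. Some of these genes are not reported here. *Laptm5*, *Scg2*, *Chgb*, *Egr3*, *Cbln3*, *Pcp2*, *Cldn11*, *Opalin*, *Mog*, *Slc1a6* and *Fgf14* and the T cell genes were chosen after their values were seen. Gene positions were those of Gencode M21, which matched 18932 of 18954 IDs (99.9%), and promoters those of RefSeq GRCm38.p6.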

Additional observations from a re-analysis of the deposited data

Results flagged for a closer look

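Of 178 sets of 4 libraries that were examined for a value apart from the rest (the gap to the nearest library divided by the range, above Dixon's critical value), 10 had one (5.62%), and chance gives about 1 in 20. CD11b+ mouse 335 had 5 of them. Its *Kcnv1* level was 1.39 CPM, with 0.286 CPM in the next library, and its *mt-Rnr2* level 48712 CPM, with 9552 CPM in the next. The summed cortical excitatory neuron markers were 2177 CPM (next 840.1 CPM), the neuropeptide genes 1142 CPM (next 213 CPM) and the nuclear genes of the respiratory chain 11142 CPM (next 5742 CPM).

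Cortex mouse 184 was high for the erythrocyte genes (112 CPM, next 20.5 CPM) and for the choroid plexus and ependymal genes (518 CPM, next 79.5 CPM). Cortex mouse 203 was high for *S100a9* (0.908 CPM, next 0.240 CPM) and cortex mouse 216 for the cytokine and chemokine genes (1202 CPM, next 1082 CPM). Cortex mouse 222 was the lowest for the cholesterol synthesis genes (1004 CPM, next 1109.7 CPM).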

How the results depend on the processing

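The numbers of called, enriched, depleted and strongly depleted genes were within 1.5 times those reported under all alternatives. Strongly enriched genes numbered 2669 without the count minimum, compared with 1772, when 34223 genes were tested. With library size alone in place of TMM, the median over all genes moved by -0.28 and the share of called genes that were higher in CD11b+ cells from 48.1% to 38.8%. The difference between genotypes had 2 called genes with DESeq2 and 0 to 1619 when 1 library was left out. All values of this range but that without CD11b+ mouse 335 were 0, and the cause was not tested.

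Of 204 genes followed, 179 kept their direction and their side of the threshold in every alternative that gave a value. Reversals occurred in genes without a call. *Kcnj8* was -0.18 with library size alone, -0.14 with limma-voom and -0.37 to 0.44 with 1 library left out. *Cbln1* was -1.48 to 0.16, *Mef2c* -0.18 to 0.11, *Rims1* -1.37 to 0.018 and *S100b* -0.020 to 1.20 with 1 library left out. The calls of *Gabra6*, *Cbln3* and *Pcp2* were lost with limma-voom. *Cadm1* lost its call with DESeq2 size factors, library size alone and no count minimum (adjusted p 0.0591, 0.511 and 0.149), *Cspg4* with library size alone and no count minimum (0.336 and 0.0731) and *Cd55* with upper-quartile factors (0.0532). *Ndrg2* was called with DESeq2, limma-voom, library size alone and all 16 libraries (0.0145 to 0.0335), and *Pvalb* in the same 4 (0.00424 to 0.0295). *Pcsk1n* was called with limma-voom and library size alone (0.0219 and 0.0465), and *mt-Rnr2* (0.0156 and 0.0124) and *Ttr* (0.0278 and 0.0417) with DESeq2 and all 16 libraries. The cause was not tested.

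Of 782 list medians over all alternatives, 33 in 18 lists moved by at least the spread between libraries, 15 of them with library size alone and without a change of sign. Sign changes concerned the neurons outside the cortex (0.06, and -0.03 to -1.15 in 6 alternatives), phospholipase C (-0.24, and 0.0040 without CD11b+ mouse 394), and, without the 50 most counted genes, heat shock (-0.15 to 0.16) and the 4 transgene and knock-in genes (-1.28 to 2.19).

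No paired analysis was possible because the CD11b+ and cortex libraries compared came from different mice and share no mouse number.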
